A study of Homo sapiens with 16 samples.

Results

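Accessible chromatin in ancestral MDA-MB-231 cells was compared between soft gel and stiff gel, at every region of chromosomes 1 to 22 that carried a peak on both gels and at the peaks found on 1 gel alone. MDA-MB-231 is an established human cell line that was derived from breast adenocarcinoma, and the labels give its genotype as WT in both groups. The cells of both groups grew on polyacrylamide gel coupled to type I collagen, of 1 kPa in the soft group and 308 kPa in the stiff group, and neither had gone through the 75 days of selection that made the study's selected cells. Each group held 4 samples, all from a single cell line, and the time that ancestral cells spent on the gel is not given in the sources used here. A single peak list was deposited for each group, so no spread between samples can be computed and no p-value is given. The intervals below are exact 95% binomial intervals that cover counting error only. Selected cells enter through the scaling of the lists and in side-by-side values.

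A total of 92722 regions had at least 1 overlapping peak in both ancestral lists, out of 161185 merged regions over the 4 lists of the series. The soft list held 107292 peaks over 116 Mb and the stiff list 113458 peaks over 126 Mb. Read totals are not among the deposited values, and the genome-wide background pileup is the only measure of depth, at 16.3 fragments in the soft list and 20.2 in the stiff list. Pileup, the number of fragments over a peak's summit, was divided by 202 in the soft list and by 280 in the stiff list. These are the medians of each list over the 70318 regions found in all 4 lists. The change of a region is the log2 ratio of these scaled pileups, soft over stiff, and a positive value means stronger on soft gel.

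In ATAC-seq a transposase cuts DNA that is not wrapped tightly, so pileup reports how often a stretch of chromatin was open across the cells. Promoters, the stretches at gene starts, are open in most cell types where they hold many CG dinucleotides, whereas distant enhancers open more selectively. Cells sense stiffness through integrins and focal adhesions that pull on the matrix with actomyosin, and the cofactors YAP, TAZ and MRTF are known to carry that signal to the nucleus. Of 7 markers of this mesenchymal type of breast cancer, 4 had a start region on both gels. The start of VIM, the mesenchymal filament vimentin, had a pileup of 2601 on soft gel against 3646 on stiff gel, and that of the membrane scaffold gene CAV1 had 1936 in the soft list and 2755 in the stiff list. No start peak was listed on either gel for 6 of 11 blood markers, PTPRC among them, or for 3 of 8 neuron markers. Both lists held a start region for 4 of the blood markers and 2 of the neuron markers. For the blood markers CD3E and SPI1 and the neuron marker SNAP25 no start is listed, and either annotated gene end was used. Their regions may thus lie at the far end of the gene. The region at CD3E had a pileup of 1373 in the soft list against 1585 in the stiff list. For the neuron marker GAD1 these values were 685 and 947. Of all 19126 protein-coding genes, 4489 had no start peak in either list. The line's markers CD44 and AXL could not be judged, since their starts lie where a list skips a peak number. Luminal breast markers were not closed, since 10 of 11 had a start region on both gels, and ESR1 had a start peak on stiff gel only.

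The promoters with the clearest change are shown first, because their base composition differs in the way that the whole set did. They are the 4 weaker and 2 stronger promoters with the counting bound farthest from 0 among those lying whole inside a shared region. All are from RefSeq on GRCh38.p14, run 5′ to 3′ on the gene's strand from 250 bases before the start to 50 after it, and capitals mark CG dinucleotides. The first 4 were weaker on soft gel and belong to SIAH1 (an E3 ubiquitin ligase; chr16:48385364-48385663, minus strand), FAM169A (chr5:74866338-74866637, minus strand), MMP11 (the matrix protease stromelysin-3; chr22:23772599-23772898, plus strand) and PDXK (pyridoxal kinase of vitamin B6 metabolism; chr21:43718879-43719178, plus strand). The remaining 2 were stronger on soft gel and belong to SYCN (syncollin of secretory granules; chr19:39204214-39204513, minus strand) and PDE4D (a cyclic AMP phosphodiesterase; chr5:59587576-59587875, minus strand).
SIAH1: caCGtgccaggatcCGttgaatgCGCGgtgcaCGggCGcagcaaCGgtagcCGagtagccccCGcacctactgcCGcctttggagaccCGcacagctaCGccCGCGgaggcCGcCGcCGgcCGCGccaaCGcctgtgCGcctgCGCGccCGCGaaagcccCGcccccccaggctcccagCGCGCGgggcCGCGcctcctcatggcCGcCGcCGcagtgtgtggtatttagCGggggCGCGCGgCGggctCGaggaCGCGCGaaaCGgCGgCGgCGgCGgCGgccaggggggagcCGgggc
FAM169A: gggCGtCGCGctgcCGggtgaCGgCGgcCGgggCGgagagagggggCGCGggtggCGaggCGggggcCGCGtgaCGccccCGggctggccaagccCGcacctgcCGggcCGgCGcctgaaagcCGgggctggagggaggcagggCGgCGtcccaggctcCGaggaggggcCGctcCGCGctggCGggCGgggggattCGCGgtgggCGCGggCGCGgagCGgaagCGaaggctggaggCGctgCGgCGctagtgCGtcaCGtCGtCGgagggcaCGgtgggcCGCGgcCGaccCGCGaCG
MMP11: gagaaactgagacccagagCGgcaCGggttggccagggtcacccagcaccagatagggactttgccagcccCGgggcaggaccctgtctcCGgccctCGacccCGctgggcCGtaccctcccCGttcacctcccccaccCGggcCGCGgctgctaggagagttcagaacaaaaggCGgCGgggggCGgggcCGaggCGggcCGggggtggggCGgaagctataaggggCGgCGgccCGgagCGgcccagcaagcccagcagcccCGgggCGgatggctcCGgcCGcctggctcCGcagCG
PDXK: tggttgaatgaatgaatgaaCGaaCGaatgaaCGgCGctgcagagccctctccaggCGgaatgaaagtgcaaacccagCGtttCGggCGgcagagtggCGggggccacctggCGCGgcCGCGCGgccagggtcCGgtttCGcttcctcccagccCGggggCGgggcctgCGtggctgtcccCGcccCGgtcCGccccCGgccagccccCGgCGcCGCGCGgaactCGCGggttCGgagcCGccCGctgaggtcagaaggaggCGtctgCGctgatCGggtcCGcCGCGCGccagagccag
SYCN: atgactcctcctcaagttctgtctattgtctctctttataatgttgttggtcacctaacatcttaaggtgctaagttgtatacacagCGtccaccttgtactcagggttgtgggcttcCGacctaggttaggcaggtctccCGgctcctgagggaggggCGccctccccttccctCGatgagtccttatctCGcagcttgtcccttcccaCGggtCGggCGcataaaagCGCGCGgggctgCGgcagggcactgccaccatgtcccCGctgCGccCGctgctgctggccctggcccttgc
PDE4D: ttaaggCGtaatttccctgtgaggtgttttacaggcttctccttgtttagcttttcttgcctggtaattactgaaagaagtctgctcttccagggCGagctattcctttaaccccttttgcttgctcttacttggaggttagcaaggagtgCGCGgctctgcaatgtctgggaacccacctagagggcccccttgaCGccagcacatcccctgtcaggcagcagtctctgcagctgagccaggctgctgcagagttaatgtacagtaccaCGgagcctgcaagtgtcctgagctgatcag

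The SIAH1 promoter holds 50 CG dinucleotides at a GC content of 77.7%, that of FAM169A 51 at 81.7%, that of MMP11 28 at 74.3% and that of PDXK 40 at 72.3%. The SYCN promoter holds 16 at 59.3% and that of PDE4D 6 at 52.3%. At SIAH1 the pileup was 143 on soft gel and 641 on stiff gel. The FAM169A promoter had 171 on soft gel against 742 on stiff gel, and the MMP11 promoter 43 on soft gel against 211 on stiff gel. On soft gel PDXK had a pileup of 358, against 1381 on stiff gel. The 2 promoters of the opposite direction were weak in both lists, with 136 on soft gel against 86 on stiff gel at SYCN, and 136 on soft gel against 91 on stiff gel at PDE4D.

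Most shared regions changed little between the gels. The median log2 ratio was 0.037 with an SD over regions of 0.31, and 93.1% of regions differed by less than 1.5-fold. At least 2-fold stronger on soft gel were 228 regions (0.246% of those compared), and at least 2-fold weaker were 181 (0.195%). Past 1.5-fold these numbers were 4182 (4.51%) and 2197 (2.37%). The counting interval of the ratio lay above 0 in 16.3% of regions and below 0 in 15.2%, and its median size to either side was 0.33 on the log2 scale. Which direction prevails depends on the scaling: with the genome-wide background of each list in place of the median, every log2 ratio fell by 0.18, and 56 regions were at least 2-fold stronger on soft gel while 481 were weaker. The number of stronger regions was 134 when each region was centred among regions of like strength and 142 when it was centred on its 10 Mb window. A difference between the medians of 2 sets of regions does not depend on the choice between median and background scaling, whereas counts past a threshold and the ratios of single regions do. The counts under background scaling are therefore given beside those of the sets below.

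Among shared regions, all changes past 4-fold were at places that 1 list could not report on. The 9 regions past 4-fold all had their strongest summit in a stretch where the other list skips a peak number, and 81 regions in all had such a summit. Without them 224 regions were at least 2-fold stronger on soft gel and 172 weaker, and the sizes reached at most 2.89-fold stronger and 3.54-fold weaker.

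Gene starts and the rest of the genome differed. Regions within 1 kb of the start of a protein-coding gene had a median log2 ratio of −0.044 (n = 13938), and all other regions had 0.058 (n = 78784). Among regions at starts, 7 were at least 2-fold stronger and 118 weaker on soft gel, whereas away from starts 221 were stronger and 63 weaker. With background scaling 2 were stronger and 244 weaker at starts, and away from starts the order turned, with 54 stronger and 237 weaker. The share of weaker regions that lay at starts was then 50.7%, against 65.2% with median scaling. Without the regions at skipped numbers, 67.4% of the 172 weaker regions lay at a gene start, and 2.23% of the 224 stronger ones did, beside 15.03% of all shared regions. Strength moved with position, since start regions had a median pileup of 587 on soft gel and 898.5 on stiff gel, against 116 and 156 away from starts. Within deciles of mean strength the median at starts was the lower one in all but the strongest decile, where it was 0.012 at starts and 0.00096 away from them. In the seventh decile it was −0.14 at starts and 0.0068 away. The difference of the 2 medians was −0.10, and it was −0.055 when regions were centred among those of like strength.

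**Figure D1:**
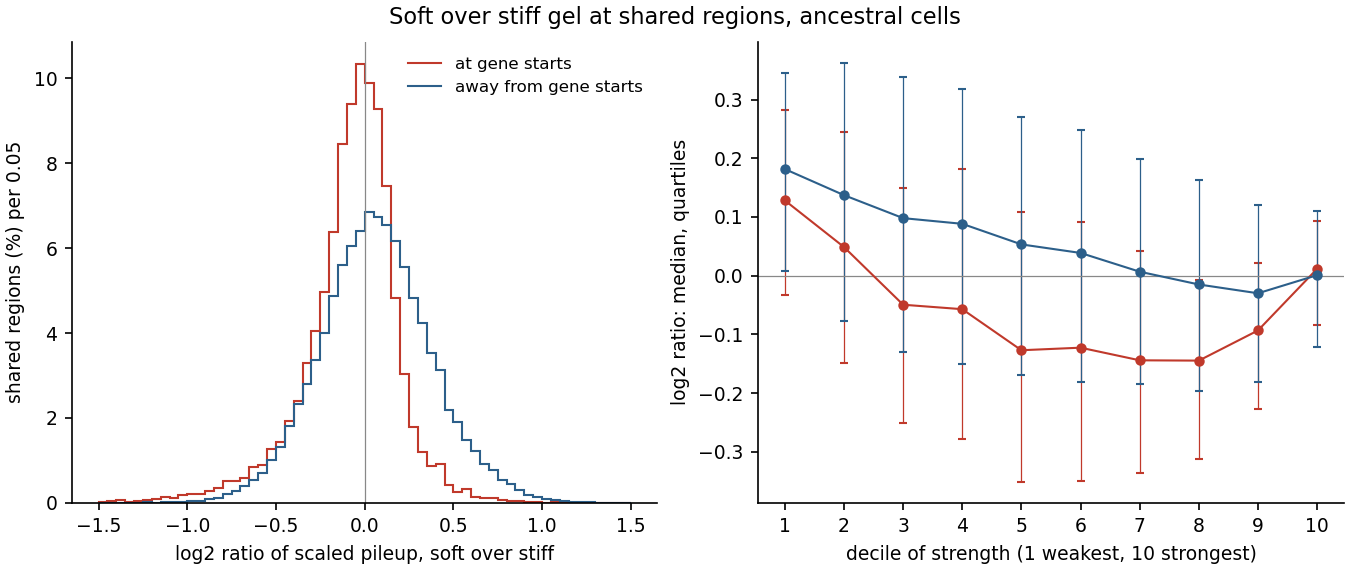
The left panel plots the share of shared regions in each bin of 0.05 of the log2 ratio of scaled pileup, soft over stiff, for regions at gene starts and away from them, and the right panel plots the median with quartile bars by decile of mean strength. The curve of gene starts has the longer tail to the left, and its medians stand below those of the other regions in deciles 1 to 9, −0.14 against 0.0068 in decile 7.

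Counted by gene, 13530 protein-coding genes had a start region on both gels outside skipped stretches. Of these, 602 (4.45%) were at least 1.5-fold weaker on soft gel and 61 (0.451%) stronger. At least 2-fold weaker were 109 (0.806%), and 2 (0.0148%) were stronger. With background scaling 1223 genes were at least 1.5-fold weaker and 15 stronger. A start peak on 1 gel only was rare: 122 genes had one on soft gel alone and 323 on stiff gel alone.

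The weaker promoters were rich in G and C. Among 12735 promoter windows that lay whole inside a shared region, the 587 that were at least 1.5-fold weaker on soft gel had a median GC content of 76.0% and 40 CG dinucleotides in 300 bases. The 12125 promoters between the limits had 65.3% and 26, and the 23 that were stronger had 58.0% and 7. Of promoters with a GC content of at least 75%, 336 of 2046 (16.4%) were at least 1.5-fold weaker and 0 were stronger. Of those between 60% and 70%, 88 of 5086 (1.73%) were weaker. Background scaling gave 595 weaker promoters of the 2046, and no other scaling tried moved the 336 past 1.5 times. Weak promoters carried most of this: among GC-richest promoters under the median strength 23.3% were weaker on soft gel, and above it 4.21%. These limits of GC content were chosen after the values were seen, and several promoters can share a region. The part of base composition and of strength in these ratios was not tested.

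**Figure D2:**
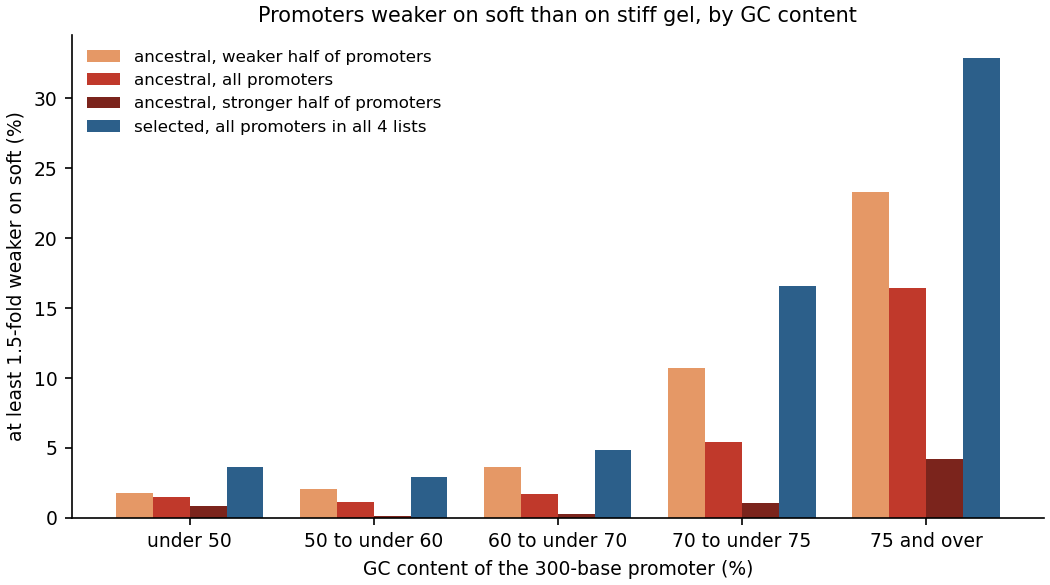
The bars give the share of promoters at least 1.5-fold weaker on soft than on stiff gel (percent) in 5 classes of GC content of the 300-base promoter, for ancestral promoters under and over the median strength, for all of them, and for selected cells at promoters in all 4 lists. Shares stay under 4% in ancestral cells up to a GC content of 70% and reach 23.3% among the weaker promoters of at least 75%, and selected cells reach 32.9%.

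Sequence motifs of the same promoters were counted as runs of letters on either strand, and the motifs may overlap one another. The GC box GGGCGG, bound by SP and KLF factors, was present in 87.2% of the promoters weaker on soft gel and in 71.0% of those between the limits, and in 56.6% of all 21041 promoters of the reference. The CCAAT box of NF-Y was in 23.2% of the weaker promoters and in 35.3% of those between, with 34.4% over all promoters. The ETS run CCGGAAG stood at 10.1% and 19.2% in the same order, with 12.9% over all. Runs of the factors tied to stiffness sensing did not prevail in the weaker promoters: the TEAD run GGAATG was in 8.01% of them and 10.9% of those between, beside 12.2% of all. The AP-1 run TGANTCA was in 4.60% and 4.93%, beside 6.09%, and the SRF CArG box in 0.511% and 1.01%, beside 1.25%. GC content differs between these classes, as given above, and its part in the motif shares was not tested. In the printed promoters the GC box occurs 5 times in PDXK, 4 times in MMP11, 3 times in FAM169A and once in SIAH1, and 0 times in SYCN and PDE4D.

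The 12 shared regions that were most clearly weaker on soft gel, ranked by the counting bound nearest to 0, were mostly promoters. SIAH1 led them with a log2 ratio of −1.69 (−1.97 to −1.43). On chromosome 22, a region 90 bp from an annotated end of YPEL1 (21735060 to 21736447) had 380 on soft gel and 1585 on stiff gel, a ratio of −1.59 (−1.75 to −1.43). FAM169A stood at −1.65 (−1.89 to −1.40) and MMP11 at −1.82 (−2.33 to −1.34). The start of DUSP16, a phosphatase of stress-activated MAP kinases, had 271 on soft gel against 1034 on stiff gel, and that of GALNT2, which begins O-linked glycosylation, had 355 against 1284. At the start of COL18A1, which encodes a basement membrane collagen, the pileup was 98 on soft gel and 390 on stiff gel, a ratio of −1.52 (−1.86 to −1.20). The other starts were those of PDXK, UBXN2A and DISP2. Of the remaining 2 regions, 1 lay 2795 bp from DLL4 (chromosome 15, 40941084 to 40942945), a Notch ligand gene, with 254 on soft gel against 1038 on stiff gel. The other lay inside TACC1, a centrosome and microtubule gene, with 252 against 996. The ratio stayed negative in all 12 under the alternatives that gave a value, which leaves out SIAH1 and DUSP16 where 1 peak per list was required and MMP11 where a −log10 q of 10 was required in both lists. The choice of regions with bounds far from 0 fixed these signs in advance.

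None of the 12 regions most clearly stronger on soft gel lay at a gene start. The highest bound was that of a region inside SH3RF3, an SH3-domain ubiquitin ligase gene (chromosome 2, 109199330 to 109199847), with 289 on soft gel and 142 on stiff gel, a ratio of 1.496 (1.20 to 1.80). A region 37209 bp from HGSNAT, a lysosomal heparan sulfate enzyme gene, had 396 on soft gel against 213 on stiff gel. Inside FABP6, the gene of an ileal bile acid carrier, the values were 499 on soft gel and 280 on stiff gel, a ratio of 1.30 (1.09 to 1.52). Others were a region inside ANO6, a phospholipid scramblase gene, with 142 against 75, and 1 lying 42928 bp upstream of the transcription factor gene WT1 with 155 against 83. The remaining regions lay inside SNX5, SYBU and KIAA1217 and near PLET1, DEFB115, ADCY8 and CD300LG, with ratios from 1.17 to 1.53. All 12 kept their sign under every alternative tried.

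**Figure D3:**
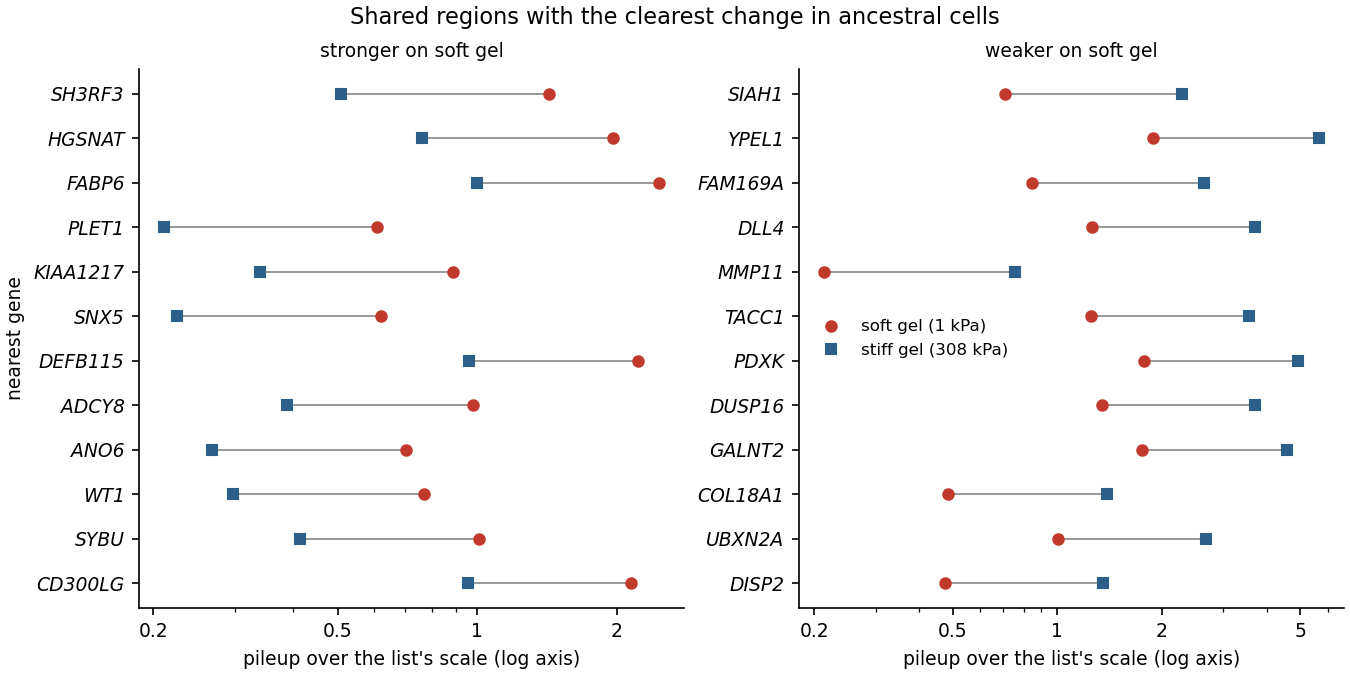
Each row is 1 shared region, named by its nearest gene, and the points give its pileup divided by the scale of its list on a log axis, with circles for soft gel and squares for stiff gel. The left panel holds the 12 regions stronger on soft gel, from SH3RF3 to CD300LG, and the right panel the 12 weaker ones, from SIAH1 to DISP2, where the square of each row lies to the right of its circle.

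Regions far from genes stood higher on soft gel than the others. Those over 100 kb from any protein-coding gene had a median of 0.20 (n = 13925), and 13.5% of them were at least 1.5-fold stronger, whereas regions inside genes away from a start had 0.035 and 3.41%. With background scaling the medians were 0.020 and −0.14, and the shares 4.93% and 1.04%. Of the 224 regions at least 2-fold stronger, 45.5% lay this far from a gene, beside 15.02% of all regions. The level differed between windows of the genome. In windows of 10 Mb with at least 50 regions, the highest medians were 0.53 on chromosome 9 from 40 to 50 Mb, 0.43 on chromosome 19 from 20 to 30 Mb and 0.43 on chromosome 1 from 120 to 130 Mb, all of which hold or border a centromere. The lowest were −0.11 on chromosome 4 from 60 to 70 Mb, −0.098 on chromosome 14 from 40 to 50 Mb and −0.079 on chromosome 18 from 60 to 70 Mb. Of 286 windows, 14 had a median of at least 0.2, a limit chosen after the values were seen. Of the 224 regions at least 2-fold stronger, 58 lay in these 14 windows (0.973% of 5958) and 166 in the others (0.192% of 86683). Inside the 14, distant regions had a median of 0.44 (n = 4383), and in the other windows 0.081 (n = 9534). Regions within 100 kb of a gene or inside it had 0.029 in the 14 windows and 0.017 elsewhere. Pileup moved with this, since distant regions of the 14 windows had a median of 71 on soft gel and 73 on stiff gel, against 113 and 149 for distant regions elsewhere, and its part in the ratio was not tested.

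**Figure D4:**
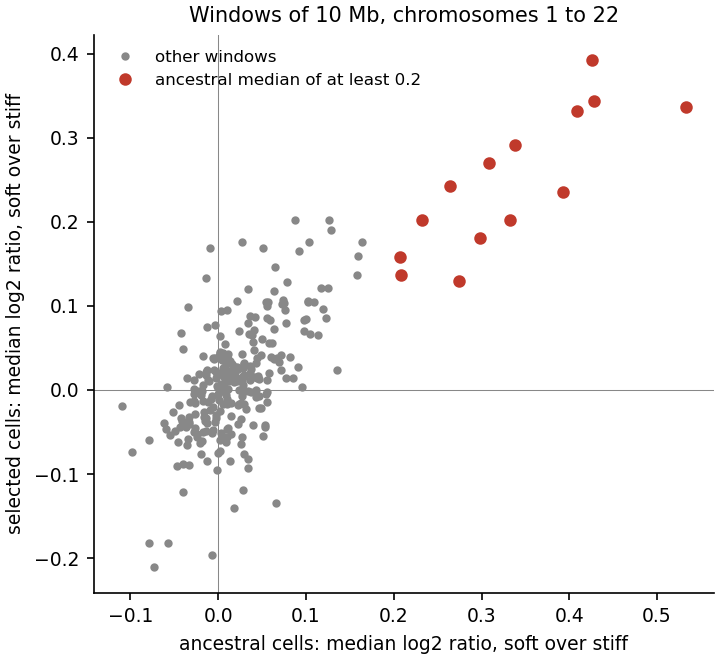
Each point is a 10 Mb window, placed by its median log2 ratio of soft over stiff gel in ancestral cells (horizontal axis) and in selected cells (vertical axis). With median scaling, the 14 windows with an ancestral median of at least 0.2 all lie above 0 in selected cells, between 0.13 and 0.39. Background scaling, which was not run for selected cells, would lower the values on both axes.

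Genes of stiffness sensing were followed through 21 lists, each member by the strongest shared region at its start, and the lists were read against the median of −0.042 over all 13530 genes. Of all these starts, 59.3% were below 0, and the counting interval lay below 0 in 28.8% and above 0 in 14.9%. The list median was lower than that in 15 lists and higher in 4 under every scaling tried, and in 2, matrix proteases and hypoxia genes, it changed sides. Members whose start lies at a skipped number could not be judged and are left out of the counts.

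Among extracellular matrix and crosslinking genes, 26 of 30 had a start region on both gels, with a median of −0.13. The counting interval lay below 0 in 12 (28.8% of all genes) and above it in 2 (14.9% of all genes). None of them, 0 of 26, passed 1.5-fold, beside 4.45% of all genes weaker and 0.451% stronger. The shared start region of COL4A1 and COL4A2, which encode the chains of basement membrane collagen IV, had 363 on soft gel and 639 on stiff gel, a log2 ratio of −0.34 (−0.53 to −0.16). LAMA3, the laminin chain of epithelial adhesion, stood on the other side at 0.39 (0.27 to 0.51), with 1089 on soft gel and 1149 on stiff gel. Matrix protease genes had a median of 0.0082 over 16 of 25 members, which was below 0 under every other scaling, between −0.17 and −0.011, and below that of all genes when centred on strength. Their list holds TIMP3, an inhibitor of these proteases, with 412 on soft gel against 898 on stiff gel and a ratio of −0.65 (−0.82 to −0.48). The protease gene MMP11, whose promoter is described above, is not among the members behind this median.

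Focal adhesion and integrin genes had a median of −0.19 over 22 of 25 members, and the interval lay below 0 in 12 and above it in 0, beside 28.8% and 14.9% of all genes. At least 1.5-fold weaker were 2 of the 22, PARVA and TNS3, beside 4.45% of all genes. PARVA, a parvin that joins integrin-linked kinase to actin, had 661 on soft gel and 1554 on stiff gel (−0.76, −0.90 to −0.63). TNS3, a tensin that links integrins to actin, had 168 on soft gel and 385 on stiff gel (−0.73, −0.996 to −0.46). Over all 35 shared regions of TNS3 the median was 0.14, so its start stood apart from the rest of the gene. FERMT2, the integrin activator kindlin-2, had 891 against 1515 (−0.29, −0.42 to −0.17). In the list of myosin II and its small GTPase signalling, 16 of 21 starts were below 0, beside 59.3% of all genes, and 3 were at least 1.5-fold weaker, beside 4.45%. ROCK2, a kinase that activates myosin, had 327 on soft gel and 1003 on stiff gel, a ratio of −1.15 (−1.33 to −0.96). ARHGEF2, a microtubule-bound exchange factor that activates small GTPases, had 173 against 404 (−0.75, −1.02 to −0.49), and ARHGAP42 and ARHGAP29, whose proteins switch small GTPases off, stood at −0.68 and −0.55. The list thus held an activator and inhibitors of small GTPases among its weaker starts. Of the actin cytoskeleton and SRF/MRTF target genes, 15 of 19 were below 0, beside 59.3% of all genes. MRTFB, itself an actin-regulated cofactor of SRF, was the 1 of 19 past 1.5-fold, a share near the 4.45% of all genes, with 156 on soft gel and 360 on stiff gel (−0.74, −1.02 to −0.46).

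Mechanosensitive channel genes had a median of −0.19 over 10 of 14 members, and 7 of the 10 were below 0, beside 59.3% of all genes. The counting interval lay below 0 in 4 and above it in 2, beside 28.8% and 14.9% of all genes. The start of TRPM7, a channel fused to a kinase, had 391 on soft gel and 1042 on stiff gel, a ratio of −0.94 (−1.11 to −0.77). PIEZO1, the stretch-activated channel, had 474 against 889 (−0.44, −0.60 to −0.27), a change under 1.5-fold. Among YAP/TAZ-TEAD targets, 17 of 22 starts were below 0 with a median of −0.13, 10 with an interval below 0 and 1 above it, beside 59.3%, 28.8% and 14.9% of all genes. FOXF2, a forkhead factor gene, had 75 on soft gel and 279 on stiff gel (−1.42, −1.81 to −1.05), and IGFBP3, a binder of insulin-like growth factors, had 565 against 1496 (−0.93, −1.08 to −0.79). The widely used targets ANKRD1, with 1051 on soft gel and 1668 on stiff gel (−0.20, −0.31 to −0.083), and AMOTL2, with 1151 against 1711 (−0.10, −0.21 to 0.0078), were within 1.5-fold, and GADD45A stood at 0.16 (0.084 to 0.25), a sign that background scaling turned. In the Hippo pathway itself 11 of 16 starts were below 0, a share near the 59.3% of all genes. Past 1.5-fold were 0 of the 16, beside 4.45% of all genes weaker and 0.451% stronger. The kinase scaffold gene SAV1 had the largest change there, −0.53 (−0.68 to −0.38). CCN1 and CCN2 could not be judged.

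Receptors and the nuclear envelope gave values of the same order. In the TGF-beta list TGFBR1, the type I receptor, had 1161 on soft gel and 2526 on stiff gel (−0.65, −0.75 to −0.55), and SKIL, a repressor of SMAD activity, had 654 against 1446 (−0.67, −0.81 to −0.54). Of 14 nuclear envelope genes, 9 were below 0, a share near the 59.3% of all genes, with SYNE2, a nesprin that ties the nucleus to the cytoskeleton, at −0.55 (−0.74 to −0.36). Growth factor receptor genes had a median of −0.084, with 2 of 16 at least 1.5-fold weaker, beside 4.45% of all genes. They were FGFR2 at −0.67 (−0.98 to −0.37) and IGF1R at −0.62 (−0.82 to −0.43). In the antioxidant list GCLM, a subunit of the enzyme that begins glutathione synthesis, had 802 on soft gel and 1852 on stiff gel (−0.74, −0.86 to −0.62). SRXN1, sulfiredoxin, stood at −0.68 (−0.84 to −0.52).

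A few lists had medians over that of all genes. Sterol synthesis and SREBP genes stood at 0.038, with intervals above 0 in 7 of 17 members and below 0 in 3, beside 14.9% and 28.8% of all genes. Enzyme genes made up the first set, with LSS, lanosterol synthase, at 0.43 (0.30 to 0.56) and FDPS, farnesyl diphosphate synthase, at 0.23 (0.15 to 0.32), together with the regulators SREBF2 at 0.18 and INSIG2 at 0.14, the last of which background scaling turned below 0. In the opposite direction INSIG1, which retains SREBP in the endoplasmic reticulum, had 1434 on soft gel and 3499 on stiff gel (−0.82, −0.91 to −0.73), and its partner SCAP had 773 against 1567 (−0.55, −0.67 to −0.42). Interferon response genes stood at 0.070, with intervals above 0 in 3 of 16 and below 0 in 3, and ribosomal protein genes at 0.015, with intervals above 0 in 1 of 20 and below 0 in 6. The shares of interferon genes above 0 and of ribosomal protein genes below 0 were near the 14.9% and 28.8% of all genes. Cell cycle genes stood at −0.0039. Background scaling gave −0.14 for sterol, −0.11 for interferon and −0.16 for ribosomal protein genes, beside −0.22 for all genes. The sterol median was also just below 0 with fold enrichment, at −0.0013, and the ribosomal median was below 0 under every other scaling, between −0.16 and −0.00042.

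AP-1 family genes had the lowest median of the 21 lists, −0.23, but 10 of 17 members could not be judged and 7 had a start region on both gels. The medians of the remaining lists were −0.12 for epithelial genes, −0.080 for NF-kB and inflammatory cytokine genes, −0.074 for EMT and mesenchymal genes and −0.047 for hypoxia and glycolysis genes. The only member of these past 1.5-fold was GRHL1, an epithelial transcription factor gene, with 383 on soft gel and 818 on stiff gel (−0.62, −0.80 to −0.45). It was 1 of 16 epithelial starts, beside 4.45% of all genes that were at least 1.5-fold weaker.

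**Figure D5:**
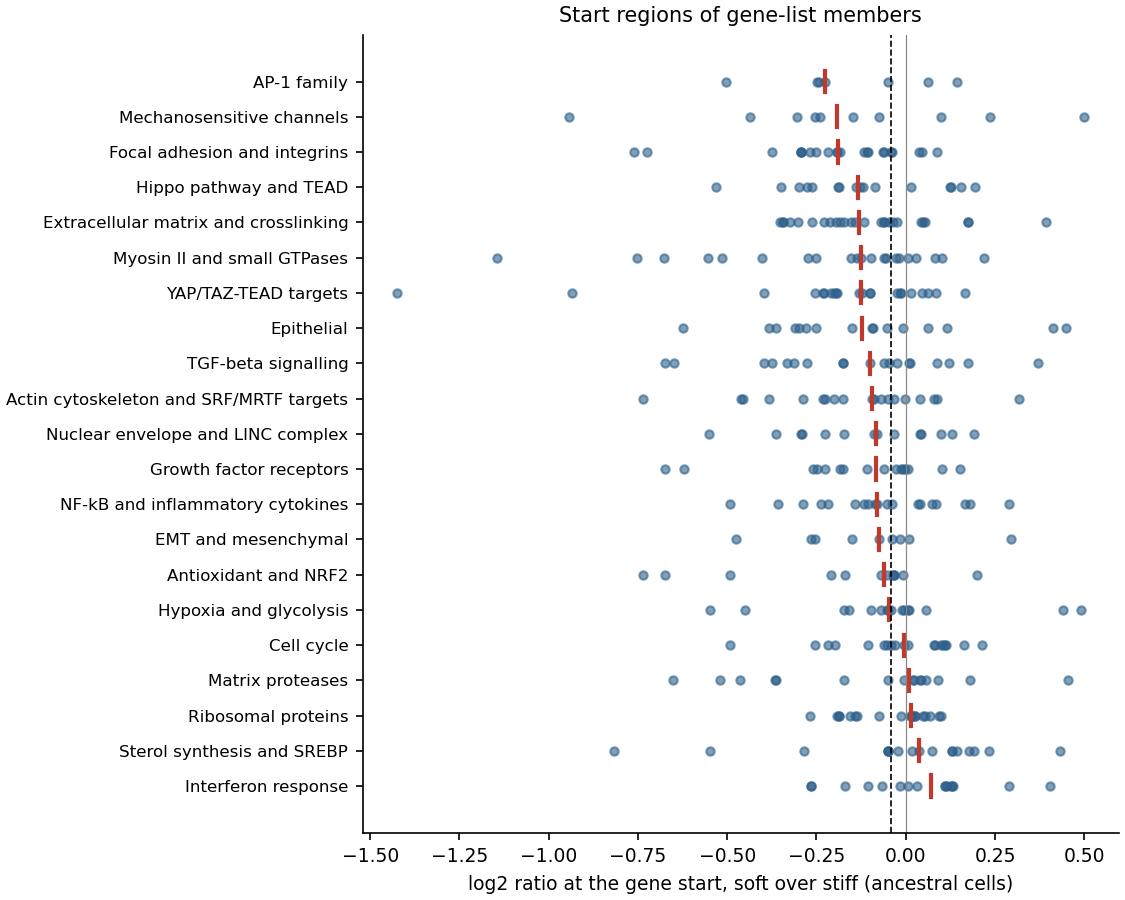
Each blue point is the start region of a list member, placed by its log2 ratio of soft over stiff gel, red bars are list medians, and the dashed line is the median of −0.042 over all genes. AP-1, channel and adhesion genes lie at the top with medians from −0.23 to −0.19, and interferon genes at the bottom with 0.070. The points of all lists overlap.

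Base composition was high in many of the named starts as well. The promoter GC content was 77.3% at ROCK2, 81.0% at PIEZO1, 76.3% at TNS3, 78.3% at INSIG1 and 80.7% at TGFBR1, and 61.7% at LAMA3. LSS, which was stronger on soft gel, had 74.7%, so a high value was found on both sides. The lists differed as well. At least 75% GC was found in 8 of 16 adhesion, 5 of 10 channel and 7 of 14 growth factor receptor promoters. It was found in 0 of 11 interferon and 1 of 15 ribosomal protein promoters, beside 19.5% of all genes. AP-1 genes, with the lowest median, had 0 of 4, and Hippo genes 1 of 14. The part of GC content in the list medians was not tested.

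Genes can also be followed over all their regions. Among 2987 genes with at least 8 shared regions, the median over a gene's regions ranged from −0.18 to 0.22 between the 5th and 95th percentile. The highest were ETV7, an ETS repressor gene, with 0.46 over 9 regions, EIPR1 with 0.45 over 9, MOCS1 of molybdenum cofactor synthesis with 0.44 over 10, LGSN with 0.44, the muscarinic receptor gene CHRM2 with 0.42 and FRY with 0.42. MOCS1 also had 8 peaks on soft gel alone and 0 on stiff gel alone. The lowest were LRP11 with −0.41 over 8 regions, IKBKB, a kinase of NF-kB activation, with −0.40 over 10, ATXN10 with −0.39, MGLL with −0.37, SKAP1 with −0.35 and PPP2R3A with −0.34. At IKBKB 8 of 10 regions were weaker on soft gel, and at SKAP1 11 of 16. These genes were picked by their median, so a majority on that side was largely fixed in advance.

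Peaks on 1 gel alone were counted outside the stretches where the other list skips a number. On soft gel alone were 9757 peaks, 9.09% of that list (8.92% to 9.27%), and on stiff gel alone 18071, 15.9% of that list (15.7% to 16.1%). The counts differed by a log2 ratio of −0.89 (−0.92 to −0.85). Counting only those of them with a −log10 q of 10 or more gave −2.05, where partners of any q in the other list still made a peak shared. The stiff list had the higher background pileup, and the part of depth in that limit was not tested. These peaks were weak, with a median pileup of 40 on soft gel and 54 on stiff gel, against 131 and 180 for shared peaks. The lowest pileup listed at all was 31 in the soft list and 37 in the stiff list, and after scaling 1412 soft-only and 2234 stiff-only peaks stood past 2-fold over the lowest pileup of the list that lacks them. The others lay closer to that limit. Gene starts held 2.58% of soft-only and 4.51% of stiff-only peaks, beside 15.03% of shared regions. Inside genes lay 37.2% of soft-only and 55.5% of stiff-only peaks. The 14 windows described above ran against the total, with 2341 soft-only and 573 stiff-only peaks. All 14 had more soft-only peaks, as did 34 of the 286 windows, and without the 14 the log2 ratio of counts was −1.24.

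A few peaks of 1 gel were strong. The strongest soft-only peaks, at PCBD2 (pileup 644) and DPP6 (325), overlapped peaks of both selected lists, with 651 and 137 in the selected soft list and 632 and 196 in the selected stiff list. The strongest stiff-only peak, inside SBF2 (366), overlapped none. They stood 24.1-fold, 12.2-fold and 8.52-fold over the lowest scaled pileup of the list that lacked them. Soft-only peaks inside IL15 (chromosome 4, 141686446 to 141687109, pileup 210) and RSF1, a chromatin remodelling gene (163), had no partner in either selected list. Stiff-only peaks lay 4818 bp from the calcium channel subunit gene CACNG6 (pileup 284) and inside CCDC13 (252). These further peaks stood between 5.86-fold and 7.87-fold over it. Of all soft-only peaks, 48.9% overlapped a peak of the selected soft list and 41.5% one of the selected stiff list. For stiff-only peaks these shares were 44.9% with the selected soft list and 47.8% with the selected stiff list.

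Selected cells share no sample with this comparison, and their own ratio of soft over stiff gel was set beside it at 70062 regions in all 4 lists outside skipped stretches. Of the 139 regions at least 2-fold weaker on soft gel in ancestral cells, 130 were below 0 in selected cells, with a median of −0.70. Of the 130 at least 2-fold stronger, 126 were above 0, with a median of 0.43. Over all regions 54.0% were above 0. Ratios of selected cells were scaled by list medians only, 93 on soft gel and 107 on stiff gel. The genome-wide background of the selected lists was 13.5 on soft gel and 12.6 on stiff gel. Scaling by this background was not run. It would lower each selected ratio and could turn signs and the counts above 0. Across regions, which are not independent of each other, Pearson's r was 0.44 and Spearman's coefficient 0.41, as a description. At gene starts the medians were −0.046 in ancestral and −0.098 in selected cells, and away from starts 0.037 and 0.063. At FAM169A selected cells had 47 on soft gel and 194 on stiff gel (−1.84, −2.33 to −1.38), and at PDXK 84 against 351 (−1.86, −2.22 to −1.51). The regions of YPEL1, DUSP16, GALNT2, SIAH1, TACC1 and UBXN2A lay between −1.74 and −1.31. MMP11, with 38 on soft gel against 52 on stiff gel, and DISP2 had intervals that reached 0 there. FOXF2 stood at 0.045 in selected cells, and IGFBP3 at −1.43 and ROCK2 at −1.12. Among the regions stronger on soft gel, SH3RF3 stood at 0.077 (−0.26 to 0.41) and FABP6 at 0.55 (0.094 to 1.01), and ADCY8 and ANO6 had no peak in either selected list.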

How the data were processed

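ATAC-seq data of 2 groups of 4 samples were used, with 1 peak list per group. Per the submitters' processing notes, the tools were MACS2 2.2.7.1, Bowtie2 2.4.5, Trimmomatic 0.36, MultiQC 1.1 and FastQC 0.11.4, with the build GRCh38. The way in which 4 libraries gave 1 list is not given in the sources used here. Per the file headers, each peak has a pileup signal at its summit, a fold enrichment ratio and a −log10 q-value, and these deposited values were taken as they are. The deposited pileup values are whole and carry no depth scaling, and the fold enrichment equals the pileup plus 1 over a single background plus 1 for each list. Lists skip some peak numbers (1107 in the soft list and 1173 in the stiff list), and peaks or summits in the stretches that hold them were treated as undetermined.

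Peaks that overlapped by at least 1 bp were merged, the strongest peak of a list stood for a region, and the log2 ratio and its exact conditional binomial interval were computed from the pileups. Called means past 2-fold or 1.5-fold, since 1 list per group allows no test. Gene starts came from a RefSeq promoter table of GRCh38.p14 for 15101 of 19126 protein-coding genes. For the other 4025, all genes of chromosome 8 among them, either annotated gene end was used. A region or peak belongs to the gene that holds its summit or to the nearest within 100 kb.

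The named regions are, per direction, the 12 with the counting bound farthest from 0, at most 1 per gene, with −log10 q of at least 10 in a list. As planned, this rule picked 3 undetermined regions of the 12 stronger ones and 8 of the 12 weaker ones, and it was repeated without undetermined regions. The rule also took 8 peaks of 1 gel per direction, of which some are printed, 6 genes and 3 windows per direction, and up to 4 members per gene list, of which some are printed. Other list members were chosen after their values were seen. The comparison, the gene lists and the rules were chosen with earlier results of these data known. Chromosome 8 was left out of the choice of printed promoters. The steps were tested on simulated data made from the soft list. All 200 planted changes were recovered past 2-fold, and 36 other regions with no planted change also passed it. The 2000 peaks made absent were found without a partner, but 2000 peaks were classed as undetermined. The count of list-only peaks outside skipped stretches was thus not tested. Versions were scipy 1.17.1, pandas 2.3.3, matplotlib 3.10.9, numpy 2.4.6 and python 3.11.15.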

Additional observations from a re-analysis of the deposited data

How the results depend on the processing

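No paired analysis was possible because each group has 1 peak list and the lists carry no replicate numbers. For the same reason no sample could be left out. The split of 228 regions at least 2-fold stronger and 181 weaker on soft gel became 56 and 481 with background scaling, in which every ratio falls by 0.18, and 4182 and 2197 past 1.5-fold. The stronger regions numbered 134 when centred within 20 bins of strength and 142 when centred on 10 Mb windows. All other alternatives, among them fold enrichment in place of pileup, kept both counts within 1.5 times, but the order of the counts turned with fold enrichment (165 stronger and 212 weaker), with scaling over all shared ancestral regions (202 and 207) and without the 14 windows of high median (170 and 175).

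The median at gene starts was −0.063 with scaling over all shared ancestral regions, −0.22 with background scaling, −0.083 with fold enrichment, −0.049 with −log10 q of at least 10 in both lists and −0.068 when centred on windows. Away from starts it was 0.039, −0.12, 0.023, 0.044 and 0.015 in the same order, so that background scaling turned its sign. It was 0.012 when centred on strength and 0.041 without the 14 windows. The median at starts minus that away from them was −0.055 when centred on strength, −0.093 with the limit on −log10 q, −0.083 when centred on windows and −0.085 without the 14 windows. It remained negative under every alternative run.

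With 50% coverage of the shorter peak the log2 ratio of soft-only to stiff-only counts was −0.83, with undetermined peaks kept it was −0.77, and without the 14 windows −1.24. It was −2.05, from 1815 soft-only and 7538 stiff-only peaks, when only list-only peaks with −log10 q of at least 10 were counted. Partners in the other list could then have any q. Among peaks past 2-fold over the lowest scaled pileup of the other list it was −0.66 (−0.76 to −0.57). The ratios of the 24 named regions were recomputed 189 times in all, 186 values stayed inside the counting interval, 3 under background scaling did not, and 0 changed sign. These regions were picked for bounds far from 0, beyond the shifts that the alternatives made. The limits on peak number and −log10 q leave the ratio of a kept region unchanged. The signs were thus fixed by the choice of regions and tell nothing about other regions. The exclusion of undetermined regions, of the 14 windows and of gene ends, the difference of medians and the promoter counts by GC content were added after the data were seen. Pileup limits what can be seen: a region at the median pileup carries an interval of about 0.33 on the log2 scale to either side, and regions under a pileup of 31 on soft gel or 37 on stiff gel are in no list.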

Other observations

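The ratio also differed by width and chromosome. Regions of up to 500 bp had a median log2 ratio of 0.17 (n = 9452) and those over 2000 bp −0.0075 (n = 16403), and at least 2-fold weaker on soft gel were 1 of the narrow and 81 of the wide regions. The median of a chromosome ranged from −0.0018 on chromosome 16 to 0.078 on chromosome 6. Regions at least 1.5-fold stronger on soft gel made up 1.84% on chromosome 16 and 7.77% on chromosome 18, and those at least 1.5-fold weaker made up 1.47% on chromosome 21 and 3.59% on chromosome 13.

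Among list members with a start peak on 1 gel only, the chemokine gene CCL5 had it on soft gel, with 3 of 3 assigned shared regions also above 0. CDH1, which encodes E-cadherin, TRPV2, TRPV4, ESR1, KRT5 and RBFOX3 had it on stiff gel, while the medians of their shared regions lay at 0.0062, −0.062, 0.012, −0.0012, 0.63 and −0.044 in that order.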
